A study of Mus musculus with 5 samples.

Results

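The genes described here encode 9 receptors through which blood cells find, hold on to and leave the bone marrow. They were taken by name, as a set proposed with earlier results of these data known: the chemokine receptors Cxcr4, Cxcr5, Ccr7 and Ccr9, the integrin subunits Itga4, Itga6 and Itgb1, the selectin ligand Selplg and the sphingosine 1-phosphate receptor S1pr1. All 9 were found among the 21887 protein-coding genes of the gene table. A peak was counted at an end of a gene when it overlapped the 1 kb on either side of that end, in the body when it was not at an end and its summit lay between the ends, and in the flank when its summit lay within 100 kb outside the gene. By this rule the genes held 60 of the 22948 peaks of the list, with 8 at ends, 5 in bodies and 47 in flanks. All 9 had at least 1 peak, beside 76.9% of all protein-coding genes, and Cxcr5, Itga4 and Itga6 had 1 or 2 in the body, beside 16.6%.

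The assay was ChIPmentation of H3K27ac, in which chromatin bound by an antibody against acetylated lysine 27 of histone H3 is tagged for sequencing by the Tn5 transposase. The cells were mouse bone marrow cells sorted on the surface antigens CD45.2, Sca1 and Kit and on the absence of lineage antigens, and labelled HSC/MPP, a gate that holds haematopoietic stem cells and multipotent progenitors. All 4 H3K27ac libraries and the 1 input library carry the same genotype label, Mll3/4 deleted. The labels name no deleter, age, strain or number of animals, and control libraries were not analysed here. The 4 libraries share 1 peak list, so no value has a replicate error, no difference between peaks was tested and no gain or loss against intact cells was measured.

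Chemokine receptors are G protein-coupled receptors that steer cells along gradients of their ligands, and Cxcr4 with its ligand Cxcl12 keeps stem and progenitor cells in the marrow. Integrins are pairs of an alpha and a beta chain that anchor cells to matrix and to other cells: Itga4 with Itgb1 binds Vcam1 and fibronectin, and Itga6 with Itgb1 binds laminin. Selplg, known as PSGL-1, is the glycoprotein on which rolling cells are caught by selectins, and S1pr1 guides cells out of tissues towards sphingosine 1-phosphate in blood and lymph. H3K27ac marks the promoters and enhancers of genes in an active state.

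The genes fell into 4 groups by the acetylation at their ends. Selplg had the strongest and widest peak, Itga4, Cxcr4, Itgb1 and Ccr7 had strong but narrower peaks, and Cxcr5 had only weak ones, which lay beside the end of its neighbour Bcl9l. No peak lay at an end of Ccr9, Itga6 or S1pr1. An end here is either the start or the far end of a gene. The peaks of Itga4, Cxcr4 and Itgb1 are known to lie at the start. For Selplg, Ccr7 and Cxcr5 the strand was not available, so their end peaks cannot be read as promoter peaks. In all, 6 of the 9 had a peak at an end, beside 36.2% of all protein-coding genes. In the stricter list of peaks whose −log10 q reached 5, 5 of the 9 had one, beside 24% of all protein-coding genes. As chromatin of many cells was pooled, acetylation in fewer cells and less acetylation per cell cannot be told apart.

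The RefSeq promoter table of build GRCm38.p6 held Cxcr4, Itga4, Itgb1 and Ccr9. For Cxcr5, Ccr7, Itga6, Selplg and S1pr1, the ends are called low and high by coordinate, and which of them is the start is not given. The 250 bases before the start are shown for these 4 genes, because 3 of them had a strong peak at the start and the fourth had none. Each is read 5′ to 3′ on the strand of the gene, and capitals mark the GC box GGGCGG on either strand. The Cxcr4 bases lie at chr1:128592300-128592549 on the minus strand. Those of Itga4 lie at chr2:79255176-79255425, those of Itgb1 at chr8:128685404-128685653 and those of Ccr9 at chr9:123766961-123767210, all on the plus strand.
Cxcr4: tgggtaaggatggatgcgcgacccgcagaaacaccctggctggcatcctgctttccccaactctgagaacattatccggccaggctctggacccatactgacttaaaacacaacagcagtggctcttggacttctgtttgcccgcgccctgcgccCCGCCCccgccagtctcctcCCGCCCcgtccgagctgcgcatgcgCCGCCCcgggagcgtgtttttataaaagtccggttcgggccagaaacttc
Itga4: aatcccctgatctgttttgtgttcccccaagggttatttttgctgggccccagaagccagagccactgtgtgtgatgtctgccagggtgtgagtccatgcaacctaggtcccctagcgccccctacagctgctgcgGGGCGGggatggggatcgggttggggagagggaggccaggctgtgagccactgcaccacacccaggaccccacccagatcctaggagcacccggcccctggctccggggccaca
Itgb1: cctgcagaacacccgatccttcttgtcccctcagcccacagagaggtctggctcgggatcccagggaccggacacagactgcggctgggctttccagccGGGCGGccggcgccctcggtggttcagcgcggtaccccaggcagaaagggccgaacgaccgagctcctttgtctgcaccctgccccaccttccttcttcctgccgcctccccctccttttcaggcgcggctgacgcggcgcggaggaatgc
Ccr9: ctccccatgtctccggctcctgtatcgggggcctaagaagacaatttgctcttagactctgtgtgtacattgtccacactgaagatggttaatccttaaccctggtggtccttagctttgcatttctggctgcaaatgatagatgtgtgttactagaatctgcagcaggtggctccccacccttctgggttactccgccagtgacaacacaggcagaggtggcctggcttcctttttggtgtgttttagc

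The 4 promoters ranged from CpG-rich to CpG-poor. In the whole 300-base windows, which run to 50 bases past the start, Itgb1 had 27 CpG, Cxcr4 20, Itga4 10 and Ccr9 4, beside a median of 13 over 21263 windows of protein-coding genes. The GC box occurred 3 times at Cxcr4, once each at Itga4 and Itgb1, and not in the Ccr9 window, and 46.2% of all windows hold it. TATAAA, the TATA box letters, occurred at Cxcr4 alone, beginning 30 bases before the start, and its reverse complement overlaps it there. It is in 12.6% of windows. Itga4 alone held TGTGGT (RUNX, on the reverse strand) and the E-box CAGCTG, found in 14.97% and 15.6% of windows. CACCC (KLF) was in all 4 of these windows and in 59.5% of all. All motifs were searched on both strands. The ETS letters CCGGAAGT, which 5.15% of all windows hold, were in none of the 4. The same held for the E-box CACGTG (7.84% of all windows), for CCAAT (38.2%) and for the GATA letters AGATAA (9.65%). The longer EBF and NF-kB patterns, in 0.959% and 0.423% of all windows, were not in these 4 either.

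Peaks at starts lay mostly on the gene side of the start, and the 3 strong peaks with a known strand did so too. The Itga4 and Itgb1 peaks covered all 250 bases printed above. The Cxcr4 peak ended 46 bases inside the gene and covered none of its 250 bases. The summits lay 631 bases after the start at Cxcr4, 1095 at Itga4 and 532 at Itgb1. Over 3493 starts with a peak within 1 kb, the summit of the strongest peak lay after the start in 72.5%, with a median of 305 bases and an interquartile range from -166 to 496 bases relative to it, so all 3 summits lay past the upper quartile. A peak overlapped the promoter window of 42.4% of 3179 genes with at least 20 CpG in it, and of 2.51% of 3902 genes with at most 4 CpG. Ccr9, with 4 CpG and no peak, falls in the second of these groups.

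Selplg carried the strongest acetylation of the 9 genes. The gene lies on chromosome 5 from 113817798 to 113832528, and its peak ran from 113824229 to 113835540 over its high end. The peak was 11312 bp wide, the rank 16 in width among 22948 peaks, and covered 56.3% of the gene and a further 3012 bp outside it. Its signal value, the authors' fold enrichment over background, was 12.8 at a −log10 q of 51.9. Only 1.29% of the 7929 genes that had an end peak matched or passed this height. Close by, outside the low end, were peaks with signal values of 4.50 and 5.26, at 3.59 and 2.29 kb, and outside the high end a peak of 4.34 at 4.16 kb.

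Cxcr4 and Itga4 came next, with nearly equal peaks at their starts. The Cxcr4 gene lies on chromosome 1 from 128588199 to 128592299. Its peak, from 128590364 to 128592253, reached a signal value of 8.60 at a −log10 q of 27.3, and covered 46.1% of this short gene. Itga4 lies on chromosome 2 from 79255426 to 79333114, and its peak at the start, from 79255029 to 79258671, reached a signal value of 8.91 at a −log10 q of 28.3. This peak was 3643 bp wide, a width that 3.22% of the list reached. A second, weak peak before the Itga4 start, from 79253595 to 79254582, reached 2.63 at a −log10 q of 1.22, which is a q-value above 0.05. It reached to 844 bp of the start and counted at the end only by its edge.

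Itgb1 and Ccr7 had peaks of nearly the same height. Itgb1, the beta chain shared by many integrins, lies on chromosome 8 from 128685654 to 128733579. Its peak at the start, from 128684996 to 128686634, reached a signal value of 6.95 at a −log10 q of 18.0. Ccr7, the receptor for Ccl19 and Ccl21 that guides lymphocytes to lymph nodes and early progenitors to the thymus, lies on chromosome 11 from 99144199 to 99155077. Its peak at the low end, from 99143712 to 99145685, reached a signal value of 6.92 at a −log10 q of 18.0. Among all genes that had an end peak, 21.4% reached the height of Itgb1 and 21.8% that of Ccr7, as against 11.4% for Cxcr4 and 10.1% for Itga4. Since no error is attached to a signal value, whether neighbours in this order differ was not tested.

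Cxcr5, the receptor for Cxcl13 that brings B cells into follicles, stood apart from the other 5. It lies on chromosome 9 from 44511787 to 44526444 and its low end overlaps the high end of Bcl9l. The stronger of its end peaks, from 44511837 to 44512899, reached a signal value of 3.15 at a −log10 q of 2.68. The weaker, from 44510530 to 44510986, reached a signal value of 2.52 at a −log10 q of 1.07. Both also lay at the end of Bcl9l, so they cannot be given to either gene alone. Its height was matched or passed by 83.4% of the genes that had an end peak, and in the stricter list Cxcr5 had none. The median over the 7929 genes was 4.71 (interquartile range 3.52 to 6.55), so Cxcr5 lay under the lower quartile and the 5 stronger genes above the upper one.

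**Figure D1:**
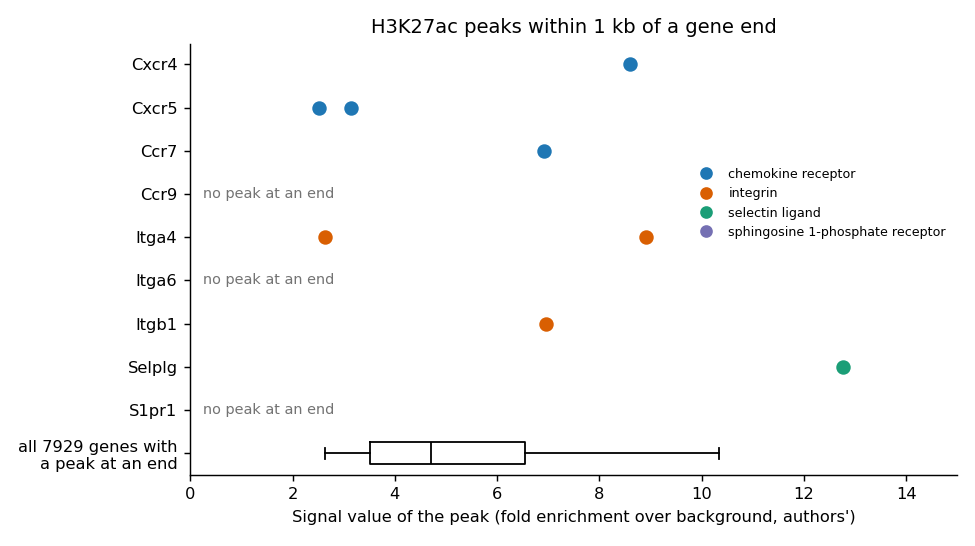
Signal value (fold enrichment over background, horizontal axis) of each peak within 1 kb of an end of the 9 genes, 1 point per peak, coloured by role; the box shows the strongest end peak of all 7929 genes with one (median 4.71, box the interquartile range, whiskers the 5th and 95th percentiles). Selplg at 12.8 lies farthest to the right, the strongest points of Cxcr4, Itga4, Itgb1 and Ccr7 lie between 6.92 and 8.91, the second point of Itga4 lies at 2.63, those of Cxcr5 lie at 2.52 and 3.15, and 3 genes have no point.

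The other 3 genes were bare at their ends but not all around them. Ccr9, which guides T-cell progenitors to the thymus and lymphocytes to the gut, lies on chromosome 9 from 123767211 to 123783457. It had no peak in its body, and its nearest peaks lay 12.2 and 13.1 kb before the start, with signal values of 3.18 and 3.27. Itga6, on chromosome 2 from 71786886 to 71858427, had 2 peaks in its body, at 71814266 to 71815295 with a signal value of 2.90 and at 71842775 to 71844511 with one of 3.64. S1pr1, on chromosome 3 from 115710433 to 115715055, had its nearest peak 7.45 kb outside its low end, with a signal value of 3.30. The list shows that no peak passed the authors' calling at these ends, not that acetylation was absent.

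Distal peaks, with a summit more than 1 kb from every end of a protein-coding gene, were then counted in each gene and within 100 kb of it. Selplg had 8, Itga4 7, Cxcr4 5, Cxcr5 5, Itga6 4, S1pr1 4, Ccr9 3, Ccr7 2 and Itgb1 1. This order depends on how close peaks are counted: with peaks within 1 kb of each other merged into 1 region, Itga4 had 5, Cxcr4 and Itga6 4, Selplg, Cxcr5 and S1pr1 3, Ccr9 2, and Ccr7 and Itgb1 1. With peaks at a q-value of 0.05 or less, unmerged, Selplg had 5 and Itga4, Cxcr4, Cxcr5 and Itga6 4 each. With merging the median of the 9 was 3. As first counted it was 4, beside a median of 1 (interquartile range 0 to 3) over all protein-coding genes, 59.1% of which had at least 1. For Itga4 the number includes both peaks at its start, whose summits lie 1095 bases after it and 1611 bases before it. Without these 2 peaks the number is 5. At least 8 were found at 5.10% of all protein-coding genes, at least 5 at 13.2% and at least 2 at 40.6%. In the stricter list only Cxcr4, Cxcr5, Itga4 and Selplg had any, or 4 of the 9, beside 34.7% of all protein-coding genes. Most of the distal peaks were thus weak, and 12 of all 60 peaks, or 20% (95% Wilson interval 11.8% to 31.8%, counting error only), had a q-value above 0.05, beside 21.2% of the list.

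**Figure D2:**
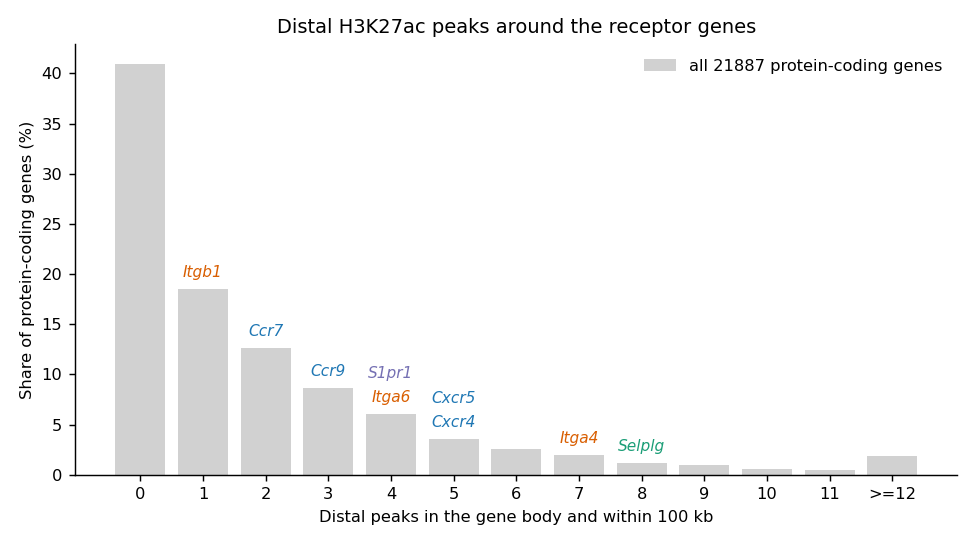
Share of the 21887 protein-coding genes (vertical axis, %) by number of distal peaks in the body and within 100 kb (horizontal axis; the last bar joins 12 and more); gene names stand above the bar of their own number, coloured as chemokine receptors (blue), integrins (orange), selectin ligand (green) and sphingosine 1-phosphate receptor (purple). Peaks are counted without merging and without adjustment for gene length. Itgb1 stands at 1 and Selplg at 8, and 8 of the 9 genes lie above the median of 1.

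Around Cxcr4 every distal peak lay before the start of the gene and none behind it. The 5 peaks lay 9.002, 10.1, 22.2, 61.4 and 83.9 kb before the start. The strongest, from 128613662 to 128616397 at 22.2 kb, reached a signal value of 6.15 at a −log10 q of 14.5, and the nearest, from 128600712 to 128601759, one of 3.70. The other 3 had signal values between 2.57 and 2.72. The first 3, joined within 12 kb, formed a cluster of 15686 bp that ranked 884 of 8972 distal clusters by summed signal value times length. No other protein-coding gene lies within 100 kb of Cxcr4, so all 5 were nearest to it.

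S1pr1 and Itgb1 also have no other protein-coding gene within 100 kb, which makes the 3 genes alike in their surroundings. Of 1181 such isolated genes, 21.2% had an end peak, and the median number of distal peaks was 0 with an upper quartile of 1. At least 5 distal peaks, as at Cxcr4, were found at 8.38% of isolated genes, at least 4, as at S1pr1, at 10.9%, and at least 1, as at Itgb1, at 31.7%. Counted within 50 kb, Cxcr4 had 3 distal peaks, S1pr1 4 and Itgb1 0, and the isolated genes were not recounted at that distance. The 4 peaks of S1pr1 were all weak. Outside the low end they lay at 7.45 and 27.8 kb with signal values of 3.30 and 2.90, and outside the high end at 13.9 and 14.6 kb with 2.34 and 2.54. The only distal peak of Itgb1 lay 89.6 kb before its start, from 128595120 to 128596477, with a signal value of 2.88. Itgb1 thus had a strong peak at its start and little else, and S1pr1 had distal peaks without one at an end.

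Itga4 combined a strong start with peaks on both sides. A peak from 79258845 to 79260197, just behind the start peak, had a signal value of 3.33. The 3 peaks around the start formed a cluster of 6603 bp at rank 360 of 8972. That rank rests on the start peak, which counted as distal only because its summit lay 1095 bases from the start, and without the peaks at the start the remaining peak ranked 4148, a setting added after seeing the data. Farther away, a peak from 79369903 to 79370815, 37.4 kb outside the far end, reached a signal value of 4.53 at a −log10 q of 7.63. Peaks 74.6 and 24.3 kb before the start had signal values of 3.52 and 2.54, and 1 inside the gene, from 79325009 to 79325544, one of 2.57 and was nearer to an end of Cerkl.

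Among the integrins, Itga6 differed from Itga4 in having no peak at an end and no distal peak in the stricter list. Besides its body peaks it had a peak 52.1 kb outside the low end with a signal value of 3.33 and a weak one of 2.72 at 8.13 kb outside the high end. A stronger peak of 4.44 at 15.2 kb lay at an end of Pdk1, the neighbouring gene. The 3 integrins together had 14 peaks, and 2 of the 3 had a peak at an end, beside 36.2% of all protein-coding genes. When the summit had to lie within 1 kb of the end, only Itgb1 had one, beside 33.3% of all.

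Selplg, Cxcr5, Ccr7 and Ccr9 lie among other genes, and part of their count belongs nearer to those. Of the 15 flank peaks of Selplg, the strongest were 9.55 at an end of Sart3, 6.86 at Iscu and 5.88 at Coro1c, and 3 of its 8 distal peaks were nearest to Selplg itself. Around Cxcr5, the strongest was 8.82, 78.7 kb outside the high end and 2.15 kb from an end of Ddx6. A peak from 44564597 to 44566586 between Cxcr5 and Ddx6 reached a signal value of 6.06 at a −log10 q of 13.7, and lay 39.5 kb from Cxcr5 and 37.0 kb from Ddx6. Of the 5 distal peaks of Cxcr5, 1 was nearest to it.

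Ccr7 had a pair of weak peaks 12.5 and 13.4 kb outside its high end, with signal values of 2.75 and 2.96. The strongest peak in its flanks, 8.36 at 75.3 kb, lay at an end of Smarce1. In the flanks of Ccr9, the strongest peaks were 6.30 at an end of Xcr1 and 5.14 at an end of Fyco1, at 69.0 and 68.0 kb, and a weak peak of 2.26 lay at an end of Cxcr6. Over the 9 genes, 27 of the 39 distal peaks, or 69.2%, were nearest to the gene they were counted for among protein-coding genes, and the other 12 were nearest to another. With all annotated genes, non-coding ones included, the share was 41.0%.

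**Figure D3:**
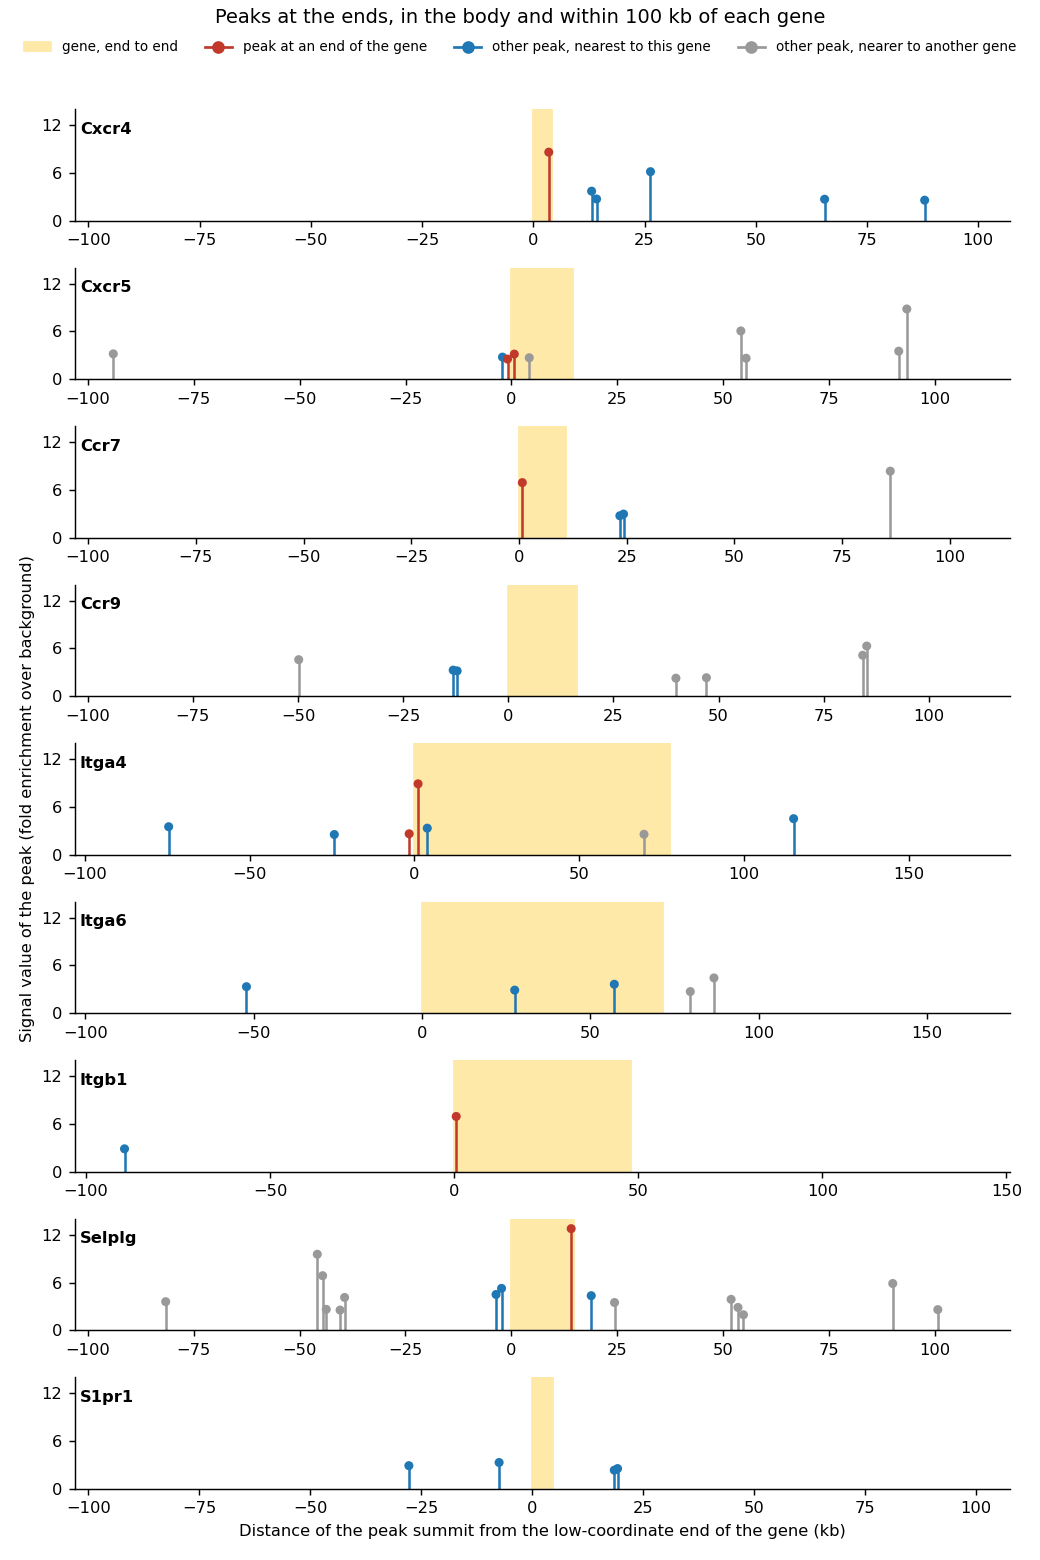
Peaks around each of the 9 genes, by distance of the summit from the low-coordinate end of the gene (horizontal axis, kb) and signal value (vertical axis, fold enrichment over background); the shaded band is the gene, red marks a peak at an end of it, blue another peak nearest to it and grey a peak nearer to another gene. Selplg has the most peaks, 16, of which 12 are grey, whereas all 6 of Cxcr4 and all 4 of S1pr1 are its own by this measure.

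By role, the chemokine receptors had peaks at an end at 3 of 4 genes with strongest values from 3.15 to 8.60, and the integrins at 2 of 3 genes with 6.95 and 8.91. Selplg, the only selectin ligand, exceeded every one of them at 12.8, and S1pr1 had none. The background share for protein-coding genes was 36.2%, or 24% in the stricter list, where 2 chemokine receptors and 2 integrins kept an end peak. When the summit had to lie within 1 kb of the end, 3 chemokine receptors and 1 integrin kept one. The background share was then 33.3%. The median number of distal peaks was 4 for the chemokine receptors (range 2 to 5) and 4 for the integrins (range 1 to 7), with 8 at Selplg and 4 at S1pr1. The ranges of the chemokine receptors and the integrins overlapped in both measures. Genes are not replicates of a role, and the differences between roles were not tested.

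The other genes of these pathways were taken from 6 lists chosen with earlier results of these data known. Of 17 other chemokine receptors, 6 had a peak at an end, or 35.3% beside 36.2% of all protein-coding genes, and in the stricter list 2 did, beside 24% of all. The strongest were Xcr1 (6.30) and Ackr3 (5.37), a scavenger of Cxcl12. The Xcr1 peak is the one counted above in the flank of Ccr9. Of 23 other integrin subunits only 2 had one, Itgb2 (5.39), the beta chain of leukocyte integrins, and Itga5 (2.35). Itga1 and Itga7 had no peak at all at an end, in the body or within 100 kb. Of 16 selectins, selectin ligands and enzymes that build their sugars, 6 had a peak at an end, or 37.5% (3 in the stricter list), led by St3gal6 (14.5), B4galt1 (5.88) and Tpst2 (4.19). St3gal6 and B4galt1 add sugars and Tpst2 adds sulfate to ligands of the Selplg kind.

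Of 9 other sphingosine 1-phosphate receptors, enzymes and transporters, 4 had a peak at an end, or 44.4% (3 in the stricter list), with Sphk2 (8.42), S1pr4 (6.16) and Sgpl1 (4.04) the strongest. S1pr4 thus had a peak at an end, where S1pr1 had none. Of 10 niche ligands and counter-receptors, which are mostly made by cells of the tissues these receptors lead to, only Ccl25 had one (6.58), and Cxcl12, Cxcl13 and Ccl19 had no peak at all within 100 kb. Of 23 genes of signalling from these receptors to adhesion, 19 had a peak at an end, or 82.6% (13 in the stricter list). Over all protein-coding genes the share was 36.2%, and 24% in the stricter list. The strongest of the 19 were Rhoh (9.06), Gnai3 (8.79), a G protein subunit, and Cdc42 (8.08), a small GTPase that acts on the cell skeleton. Rgs18 was the only gene of that list without any peak.

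**Figure D4:**
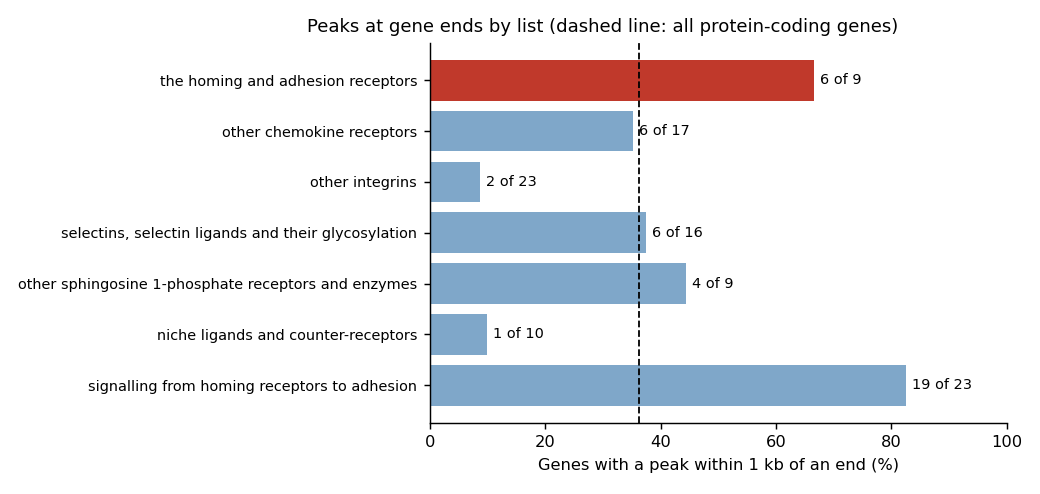
Share of genes with a peak within 1 kb of an end (horizontal axis, %) for the 9 receptors (red) and the 6 lists of other genes of their pathways (blue), with counts beside the bars and all protein-coding genes (36.2%) as the dashed line. The signalling genes (19 of 23) lie far to the right of the line and the other integrins (2 of 23) and niche ligands (1 of 10) to its left.

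The label of the sorted cells was set beside markers of the cell types that a marrow sort could hold. Of 9 stem and progenitor markers, 4 had a peak at an end, or 44.4% beside 36.2% of all protein-coding genes: Meis1 (12.2), Flt3 (6.58), Kit (5.66) and Slamf1 (3.21). Cd34, Procr, Mecom, Hlf and Ly6a, the gene of the Sca1 antigen used in the sort, had none at an end, while Ly6a had 17 distal peaks within 100 kb. All 9 B-lineage markers had a peak at an end, although the sort took cells without lineage antigens. The strongest were Blnk (13.6), Ebf1 (12.4) and Rag1 (9.31), and Ebf1 had 71 distal peaks, a number that 1 other protein-coding gene also had and none passed. Ebf1 had 53 peaks in its body, and the count was not adjusted for gene length. These B-lineage peaks stand beside a label of stem and multipotent cells. In a pooled list of cells of the same genotype, other cells in the sort and acetylation of these genes in the labelled cells cannot be told apart. None of the 7 T-lineage, 7 myeloid, 7 erythroid and megakaryocyte and 6 stromal markers had a peak at an end, and 1 of 6 endothelial markers did, Kdr (2.69). Cxcr5 and Ccr7 are receptors of B cells as well. The gate on absence of lineage antigens is meant to remove B-lineage cells, and whether the B-lineage peaks bear on those at Cxcr5 and Ccr7 was not tested.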

How the data were processed

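H3K27ac ChIPmentation was analysed from 1 peak list that the authors deposited for 4 libraries of Mll3/4-deleted cells over 1 input library. The submitters' processing notes name BWA, MACS2 and mm10. Versions, parameters and the way replicates were joined are not given in the sources used here. Signal values were read as the authors' fold enrichment ratio over background. The authors' −log10 p and −log10 q values were used as deposited; the deposited score was not used. Total depth is not given, so no error or interval on a signal value could be computed.

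Coordinates are 1-based. Genes came from a RefSeq table of GRCm38.p6, the assembly that mm10 denotes. Nothing was tested between genes. Counts of genes with a peak are read against the share of all protein-coding genes that had one. Distal peaks at most 12 kb apart formed clusters, which were ranked by summed signal value times length. Promoter windows and strands came from a RefSeq table that matched 4 of the 9 genes. Counting was checked on planted peaks. Python 3.11.15, pandas 2.3.3 and SciPy 1.17.1 were used. The members, the gene lists and the motifs were chosen with earlier results of these data known. The names printed are the 9 members, the 3 strongest end peaks and the genes with no peak of each list, and the nearest genes of peaks; other names were added after their values were seen, and 1 name that the rule gives is not reported here. The comparisons with isolated genes, of summits at starts and over intervals between genes were also added then. Alternatives were stricter lists, other windows, flanks and joining distances, merged peaks and all annotated genes.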

Additional observations from a re-analysis of the deposited data

How the results depend on the processing

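Of 163 recomputed values, 110 stayed close to the reported one, which for counts, medians and signal values meant within a factor of 1.5 and for shares inside the 95% Wilson interval. Of the other 53, 52 were lower and 1 was higher. Stricter lists had the widest effect. Weak peaks were common in the whole list and not only around these genes. The median signal value of the list was 3.27. Of all its peaks, 31.8% reached a signal value of 4.12 and 35.7% reached 3.89. The share of the whole list at a −log10 q of 5 is not given here. In the lists held to a −log10 q of 5 or to a signal value of 4, the peaks of the 9 genes numbered 23 and 21 in place of 60. Their median of distal peaks fell from 4 to 0 in both, that of the chemokine receptors to 0.5 and that of the integrins to 0, and 9 and 8 clusters were left in place of 28. The share of all protein-coding genes with a peak at an end was 24.0% and 23.2% there, 34.4% at a q-value of 0.05 or less, 39.3% with a window of 2.5 kb and 33.3% when the summit had to lie in the window. The 6 genes with a peak at an end became 5 in both stricter lists, which lost Cxcr5, and 5 with the summit rule, which lost Itga4 and left 1 integrin. Of the other chemokine receptors, 2, 2 and 3 of 17 had an end peak in these lists and under the summit rule, and of the selectin list 3, 3 and 2 of 16. Of the other integrins, 1 was left in each of these and at a q-value of 0.05 or less. Of the signalling genes, 12 were left in the list held to a signal value of 4. Merging peaks within 1 kb of each other took the distal peaks of Selplg from 8 to 3, of Cxcr5 from 5 to 3 and of Ccr7 from 2 to 1, and the peaks of the 9 genes from 60 to 42. A flank of 50 kb took the distal peaks of Cxcr4 from 5 to 3 and of Itgb1 from 1 to 0, and left those of the other 7 genes within a factor of 1.5. At a q-value of 0.05 or less, Selplg had 5 and Itga4 4. The share of distal peaks nearest to their gene was 41.0% with all annotated genes. The loss with stricter lists follows from fewer peaks; total depth is unknown.

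Values of single libraries are not in the list, and none was left out. No paired analysis was possible because all values are pooled over the libraries.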

Other observations

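Single genes of the wider adhesion and signalling lists carried many distal peaks. The counts include the gene body and were not adjusted for gene length, so long genes can reach high numbers. The median of the 23 other integrins was 1, the same as over all protein-coding genes. That of the selectin list was 2.5 and that of the signalling list 3. Itga9, an integrin alpha chain that pairs with Itgb1, had 14 distal peaks in its body and within 100 kb and none at an end. Itgb5 had 8 distal peaks and none at an end. Cd44, a hyaluronan receptor that also carries selectin-binding sugars, had 11 distal peaks, 9 of its peaks lying in the body, and an end peak of 2.74. Elmo1 and Rhoh, which belong to the list of signalling genes, had 24 and 22 distal peaks, and end peaks of 3.64 and 9.06. In the body Elmo1 had 24 peaks and Rhoh 7. The choice of these names followed from their values.

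Distal peaks were also counted over the whole interval between the neighbouring protein-coding genes, with no limit at 100 kb. Between Dars and Thsd7b, Cxcr4 had 11 distal peaks, all on the side of its start, where the interval extends 680.9 kb. None lay in the 170.8 kb on the other side. Of the 11, 6 lay more than 100 kb away, the farthest at 662.6 kb. S1pr1 had 6 such peaks between Olfm3 and Dph5, the strongest with a signal value of 5.23. Itga4 had 6 between Ube2e3 and Neurod1, an interval that also holds Cerkl, apart from those at its start. The strongest of them had a signal value of 7.68 and was the 1 that lay beyond 100 kb, at 167.7 kb. Itgb1 had 1 in an interval that extends 180.2 kb on its low side and 246.4 kb on its high side. Per 100 kb of interval the number was 0.211 for Itgb1, 0.787 for S1pr1, 1.15 for Itga4, 1.29 for Cxcr4, 1.67 for Ccr7, 1.84 for Itga6, 2.70 for Cxcr5, 2.78 for Ccr9 and 7.14 for Selplg. Cxcr4 thus lay in the lower part of this order, and Selplg, whose interval is short, at its top. The same numbers over all protein-coding genes were not computed. Which gene a peak in such an interval acts on was not measured.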
